A study of Mus musculus with 8 samples.

Results

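The miRNAs described here are made from introns of 3 receptor and channel genes. They are miR-204 from Trpm3, miR-211 from Trpm1, and miR-1298, miR-448, miR-1264 and miR-1912 from Htr2c. The rule takes them by name and host gene and uses no count, although the set was chosen with earlier results of these data known. Of 8 mature miRNAs listed, 6 are among the 422 miRNAs of the count table, while miR-1264-3p and miR-1912-3p have no row and were not analysed here. The libraries are of hippocampal small RNA from adult male mice at 12 weeks of age, 4 of the inbred strain BTBR T+ Itpr3tf/J (BTBR) and 4 of C57BL/6J (B6), with 1 library per mouse and no treatment. BTBR is studied as a mouse model of autism and B6 is the control strain. BTBR differs from B6 across its whole genome, so a difference cannot be assigned to any single allele. The tissue was punched from brain slices, so each library holds every cell type caught in the punch.

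miRNAs are short RNAs that are cut from hairpins and guide a silencing complex to messenger RNAs, mainly through the seed near their 5′ end. Each hairpin has a 5′ and a 3′ arm (5p and 3p), and usually the product of one arm is kept while the other is degraded. Trpm3 encodes a cation channel, Trpm1 a cation channel of retinal bipolar cells and melanocytes, and Htr2c the serotonin 2C receptor. Trpm3 and Htr2c are strongly expressed in the epithelium of the choroid plexus, the tissue that secretes cerebrospinal fluid inside the brain ventricles, and miR-204 is abundant there.

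The mature sequences are shown because they set which members can share targets and which can share reads. Each is printed 5′ to 3′ from RefSeq on GRCm38.p6, with the seed (bases 2 to 8) in capitals. All 8 listed members matched by name.
mmu-miR-204-5p: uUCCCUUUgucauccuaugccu
mmu-miR-211-5p: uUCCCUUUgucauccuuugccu
mmu-miR-204-3p: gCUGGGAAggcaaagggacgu
mmu-miR-1298-5p: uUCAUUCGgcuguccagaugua
mmu-miR-1298-3p: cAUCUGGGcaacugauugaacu
mmu-miR-448-3p: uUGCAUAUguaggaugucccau
mmu-miR-448-5p: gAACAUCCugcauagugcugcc
mmu-miR-1264-3p: cAAAUCUUauuugagcaccugu
mmu-miR-1912-3p: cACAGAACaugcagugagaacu

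miR-204-5p and miR-211-5p have the same seed and differ at 1 of 22 bases, A17U (counted from 1 at the 5′ end, miR-204-5p first). A read that ends before this base, or that carries a sequencing error there, could belong to either. No other member shares bases 2 to 8 with any of the 367 miRNAs of the table whose sequence was found. miR-448-3p shares bases 2 to 7 with miR-153-3p. miR-448-5p is not among the members and is given as the other arm of the miR-448 hairpin.

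On GRCm38, the hairpin of miR-204 spans 22750605 to 22750672 of chromosome 19, in intron 6 of the transcript Trpm3-218, and that of miR-211 spans 64205806 to 64205911 of chromosome 7, in intron 6 of Trpm1-201. The Htr2c hairpins lie on the X chromosome. In Htr2c-202, intron 3 holds miR-1912 (147009441 to 147009527), miR-1264 (147010601 to 147010686) and miR-1298 (147064905 to 147065002), and intron 5 holds miR-448 (147158210 to 147158321). None of the 6 hairpins overlaps an annotated exon of its host gene, and each is on its host's strand. miR-1298 and miR-448 are 93207 bases apart, and miR-1912 and miR-1264 are 1073 bases apart.

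B6 libraries held from 5078301 to 5792967 counted reads and BTBR libraries from 2247482 to 7904990. Levels are CPM, the reads of a miRNA scaled to a common library size by edgeR's TMM method. The strains were compared with edgeR's quasi-likelihood test over all 422 miRNAs, with p-values adjusted by the method of Benjamini and Hochberg and a threshold of 0.1. Each member's log2(CPM + 0.5) was compared as well by an exact permutation test, two-sided, that divides the 8 mice in all 70 ways and can give no p below 0.0286. Of all miRNAs, 7 passed the quasi-likelihood test (1.66%). Nothing in the sources used here says whether the mice of a strain came from separate litters. The 5 neuronal miRNAs used to check the tissue (miR-124-3p, miR-9-5p, miR-128-3p, miR-132-3p and miR-138-5p) summed to between 51640 and 80541 CPM in B6 and between 60191 and 72878 CPM in BTBR mice, and none of them passed. The labels and the header of the count table name no batch. B6 replicate 1 had the highest level of the 8 mice in 5 of the 6 members, so fold changes are given with and without it.

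None of the 6 members passed the adjusted threshold. At an unadjusted p under 0.05 there were 4 (miR-1298-5p, miR-204-3p, miR-448-3p and miR-204-5p), all with lower fitted levels in BTBR, against 46 of all 422 miRNAs (10.9%) in either direction and 15 (3.55%) on the lower side. The fitted log2 fold changes of miR-1298-5p, miR-448-3p and miR-204-3p were the 3 lowest in the table. The median over the 6 members was −1.54, beside 0.02 over all miRNAs. Without B6 replicate 1 these medians were −0.84 and −0.04. In none of the 6 did the strains separate, and the CPM of the strains did not overlap in 6.64% of all miRNAs. With 6 members, 0 is not apart from that share. The other tests differed in their calls. The DESeq2 Wald test passed 2 members (5.65% of the 372 miRNAs it adjusted), edgeR's exact test 3 (3.79% of all), and limma-voom 0 (1.42% of all). In the quasi-likelihood test, the number of members past the threshold was 2 without B6 replicate 3 (1.66% of all miRNAs passed then) and 3 without B6 replicate 4 (1.90%). It was 0 without any one of the other 6 mice. The study used edgeR with TMM scaling at the same cutoff and treats miR-204-3p as differentially expressed. It lists more miRNAs as changed than passed here, and its methods do not name the edgeR test.

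**Figure D1:**
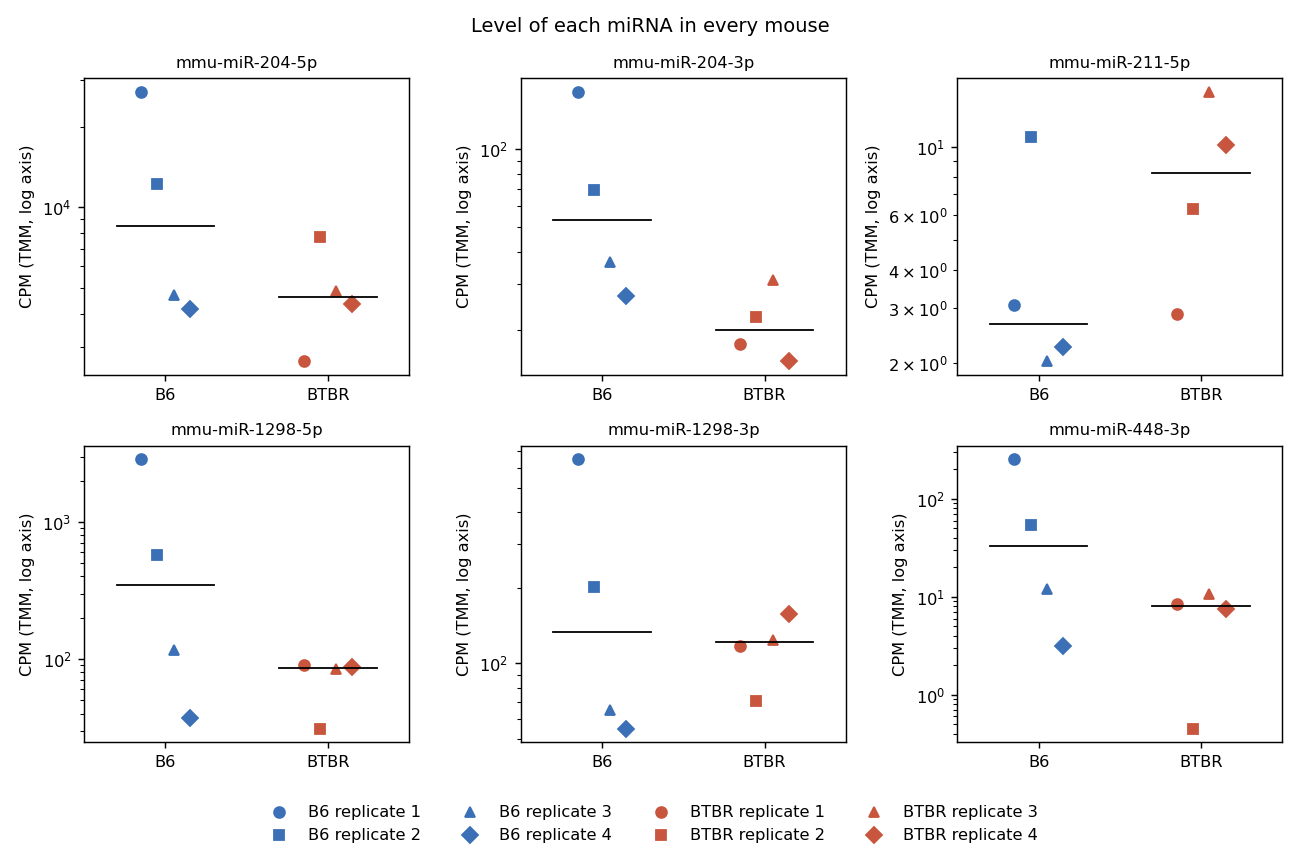
Level of each of the 6 miRNAs in CPM after TMM scaling (log axis) in 4 B6 and 4 BTBR mice; each symbol is 1 mouse and the black line is the median. In miR-204-5p, miR-204-3p, miR-1298-5p, miR-1298-3p and miR-448-3p, B6 replicates 1 and 2 are the highest of the 8 mice, and the other B6 mice lie among or near the BTBR mice.

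miR-204-5p, the main product of the Trpm3 locus, was the most abundant member in every mouse. It had 26966, 12241, 4707 and 4157 CPM in B6 replicates 1 to 4, and 2650, 7739, 4859 and 4343 CPM in BTBR replicates 1 to 4. B6 replicates 1 and 2 lay above all BTBR mice, and B6 replicates 3 and 4 lay within the BTBR range. The fitted log2 fold change was −1.30, SE 0.54 (adjusted p = 0.439, edgeR quasi-likelihood; exact permutation test, p = 0.286). With B6 replicate 1 left out it moved to −0.59.

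miR-204-3p, from the other arm of the same hairpin, was much scarcer, with between 50 and 862 reads per library. It had 165, 69.1, 36.7 and 27.2 CPM in B6 replicates 1 to 4, and 17.7, 22.4, 31.3 and 15.2 CPM in BTBR replicates 1 to 4. The strains came closest to separating here, since 3 of the BTBR mice lay below every B6 mouse and only BTBR replicate 3 lay above B6 replicate 4. The fitted log2 fold change was −1.79, SE 0.52 (adjusted p = 0.168, edgeR quasi-likelihood; exact permutation test, p = 0.0571). It passed with the DESeq2 Wald test (adjusted p = 0.0175) and edgeR's exact test (adjusted p = 0.0422), and in the quasi-likelihood test without B6 replicate 3 or 4 (adjusted p = 0.0993 and 0.0497). Leaving out B6 replicate 1 brought it to −1.10.

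miR-211-5p, from the related Trpm1 locus, was the scarcest member in B6 by its median, with 2.66 CPM. Its counts were 16, 64, 10 and 10 reads in B6 replicates 1 to 4 and 14, 14, 60 and 84 reads in BTBR replicates 1 to 4, which is 3.07, 10.7, 2.02 and 2.25 CPM against 2.88, 6.28, 15.0 and 10.1 CPM. The mice with the most were BTBR replicate 3, B6 replicate 2 and BTBR replicate 4, so that both strains held high and low mice. It was the only member with a fitted level above B6 in BTBR, by 0.91 on the log2 scale, SE 0.64 (adjusted p = 0.651, edgeR quasi-likelihood; exact permutation test, p = 0.257). It was 1.84 without B6 replicate 2 and 0.72 without B6 replicate 1, and between 0.51 and 1.84 over all 8 mice left out in turn. The study's supplement lists the counts of both miR-204-5p and miR-211-5p partly as fractions, which the deposited counts give rounded, so the split of reads between these near-identical miRNAs is uncertain. B6 replicate 1 had 8782 reads of miR-204-5p for each read of miR-211-5p, the other B6 mice between 1143 and 2333, and the BTBR mice between 323 and 1231. These low counts set wide limits: the 95% interval of the ratio in B6 replicate 1 ran from 5408 to 15365 (exact binomial, covering counting error only).

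miR-1298-5p, from intron 3 of Htr2c, had the lowest fitted fold change of the 422 miRNAs and the widest spread among B6 mice. B6 replicates 1 to 4 had 2863, 576, 115 and 37.3 CPM, and BTBR replicates 1 to 4 had 90.9, 31.0, 84.2 and 87.9 CPM. The 3 highest mice were B6, but B6 replicate 4 lay below 3 of the 4 BTBR mice. With 4 mice each, B6 had 898 ± 1331 CPM (mean ± SD, n = 4) and BTBR 73.5 ± 28.5 CPM, a 12.2-fold difference, whereas the medians of 346 and 86.1 CPM differed 4.02-fold. The fitted log2 fold change was −3.60, SE 1.05 (adjusted p = 0.168, edgeR quasi-likelihood; exact permutation test, p = 0.2). It was −1.75 without B6 replicate 1 and −2.05 in limma-voom, and it passed with edgeR's exact test (adjusted p = 0.0184), the DESeq2 Wald test (adjusted p = 0.0502), and without B6 replicate 3 or 4 (adjusted p = 0.0993 and 0.0333).

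miR-1298-3p did not follow the same course. It had 652, 202, 65.0 and 54.8 CPM in B6 replicates 1 to 4, and 118, 70.5, 124 and 157 CPM in BTBR replicates 1 to 4. B6 replicates 1 and 2 were again highest, but the lowest mice were also B6, and the medians were close, at 134 CPM in B6 and 121 CPM in BTBR. The fitted log2 fold change was −1.05, SE 0.66 (adjusted p = 0.617, edgeR quasi-likelihood; exact permutation test, p = 0.714). It rested on 1 mouse: without B6 replicate 1 it turned to 0.09. In limma-voom over all mice it was −0.35.

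miR-448-3p, from intron 5 of Htr2c, had 254, 53.7, 11.9 and 3.15 CPM in B6 replicates 1 to 4, and 8.43, 0.449, 10.8 and 7.58 CPM in BTBR replicates 1 to 4. As with miR-1298-5p, 3 B6 mice lay above all BTBR mice and B6 replicate 4 lay below 3 of them. BTBR replicate 2 had 1 read, the lowest count in the table, and was also the shallowest library. The fitted log2 fold change was −3.51, SE 1.11 (adjusted p = 0.239, edgeR quasi-likelihood; exact permutation test, p = 0.2). It was −1.74 without B6 replicate 1 and −2.30 in limma-voom, and it passed with edgeR's exact test (adjusted p = 0.0554) and without B6 replicate 4 (adjusted p = 0.0497).

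**Figure D2:**
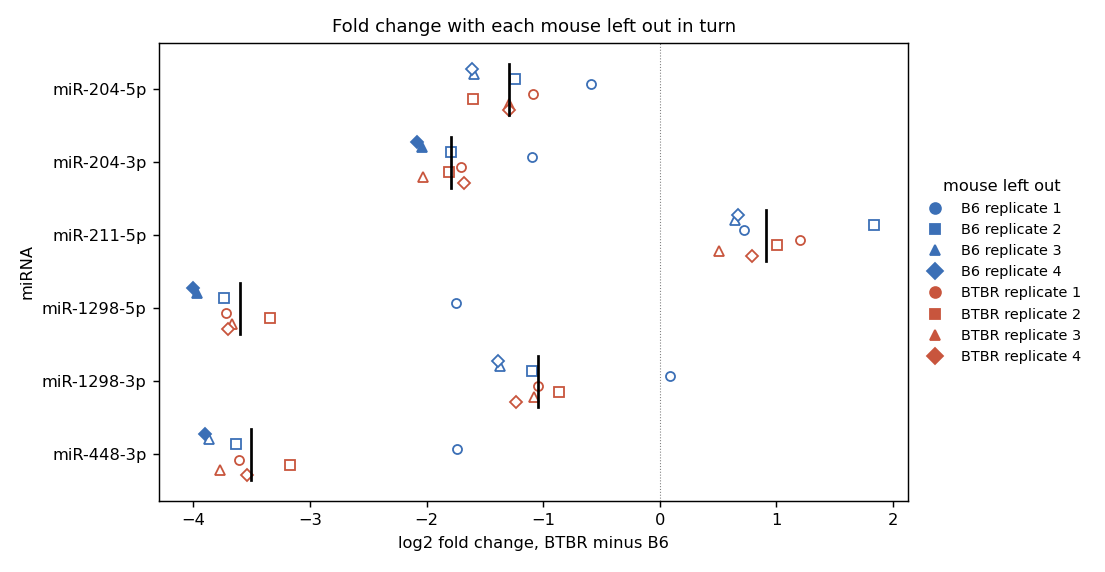
Log2 fold change (BTBR minus B6) of each of the 6 miRNAs over all 8 mice (black line) and with 1 mouse left out (symbols); filled symbols passed an adjusted p of 0.1 in edgeR's quasi-likelihood test and open symbols did not. Leaving out B6 replicate 1 brings all 6 miRNAs nearer 0, such as miR-1298-5p from −3.60 to −1.75, and the filled symbols belong to B6 replicates 3 and 4.

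By host locus, the summed level of the Trpm3 members in CPM (mean ± SD, n = 4) was 12092 ± 10689 in B6 and 4920 ± 2118 in BTBR, and that of the 3 Htr2c members was 1222 ± 1729 in B6 and 198 ± 66.0 in BTBR. The B6 mice varied 6.48-fold at the Trpm3 locus and 39.6-fold at the Htr2c locus. The BTBR mice varied 2.91-fold and 2.48-fold. Without B6 replicate 1 the other 3 B6 mice varied 2.94-fold at the Trpm3 locus, close to all 4 BTBR mice, and 8.74-fold at the Htr2c locus. No BTBR mouse was left out of these folds. At the Htr2c locus BTBR replicate 2 had 102 CPM, against 217 to 253 CPM in the other BTBR mice. At the Trpm3 locus BTBR replicates 1 to 4 had 2668, 7762, 4890 and 4358 CPM. The loci were not in proportion from mouse to mouse. There were 9.42 reads of miR-204-5p for each read of miR-1298-5p in B6 replicate 1, 21.2, 40.8 and 111 in B6 replicates 2, 3 and 4, and 29.2, 250, 57.7 and 49.4 in BTBR replicates 1 to 4. The log2 ratio of the mean sums, BTBR over B6, was −1.30 at the Trpm3 locus and −2.63 at the Htr2c locus, and without B6 replicate 1 it was −0.59 and −0.95. These sums and ratios were not tested between strains. In bulk tissue, fewer cells of a type and less RNA per cell cannot be told apart.

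Within the Htr2c locus, miR-1298-5p and miR-448-3p kept nearly the same ratio in 7 of the 8 libraries while their levels changed. In the 7 libraries with more than 3 reads of miR-448-3p, there were between 7.81 and 11.9 reads of miR-1298-5p for each read of miR-448-3p, a 1.52-fold range, while miR-1298-5p itself ranged 76.8-fold and miR-448-3p 80.7-fold over the same libraries. The cutoff left out BTBR replicate 2 alone. It had 69 reads of miR-1298-5p for 1 of miR-448-3p, a ratio whose 95% interval from counting (exact binomial) begins at 11.98. This is just above the highest of the other 7 ratios. miR-448-3p was the miRNA whose pattern was most like that of miR-1298-5p among the other 421 (Pearson's r = 0.97 and Spearman's rho = 0.93 of log2(CPM + 0.5) over the 8 libraries). Without the 2 libraries farthest from the median, B6 replicates 1 and 2, r was 0.93. Of the libraries left, B6 replicate 4 and BTBR replicate 2, with its 1 read of miR-448-3p, were the lowest in both miRNAs. The rest lay close together, so this r also leaned on few libraries. The next most like miR-1298-5p were miR-34c-5p (r = 0.93, rho = 0.69), miR-1298-3p (r = 0.91, rho = 0.64), miR-204-3p (r = 0.90, rho = 0.64) and miR-34c-3p (r = 0.86, rho = 0.67). For these 4, r without B6 replicates 1 and 2 was between 0.06 and 0.53, so that the likeness rested mostly on those 2 mice.

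For miR-204-5p, the most alike were miR-204-3p (r = 0.90, rho = 0.74), miR-296-3p (r = 0.83, rho = 0.64), miR-34b-5p (r = 0.82, rho = 0.74), miR-1298-5p (r = 0.81, rho = 0.40) and miR-92a-3p (r = 0.81, rho = 0.74). Without B6 replicates 1 and 2, the r with miR-1298-5p was −0.54 and with the other 4 between 0.25 and 0.57. miR-211-5p, which shares its seed, came 159th (r = 0.08, rho = 0.43). All these values are descriptions over 8 libraries of both strains and of unequal depth, in which each library gives both values of a pair, and the miRNAs named were taken from the top of the ranking, so no test was made.

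**Figure D3:**
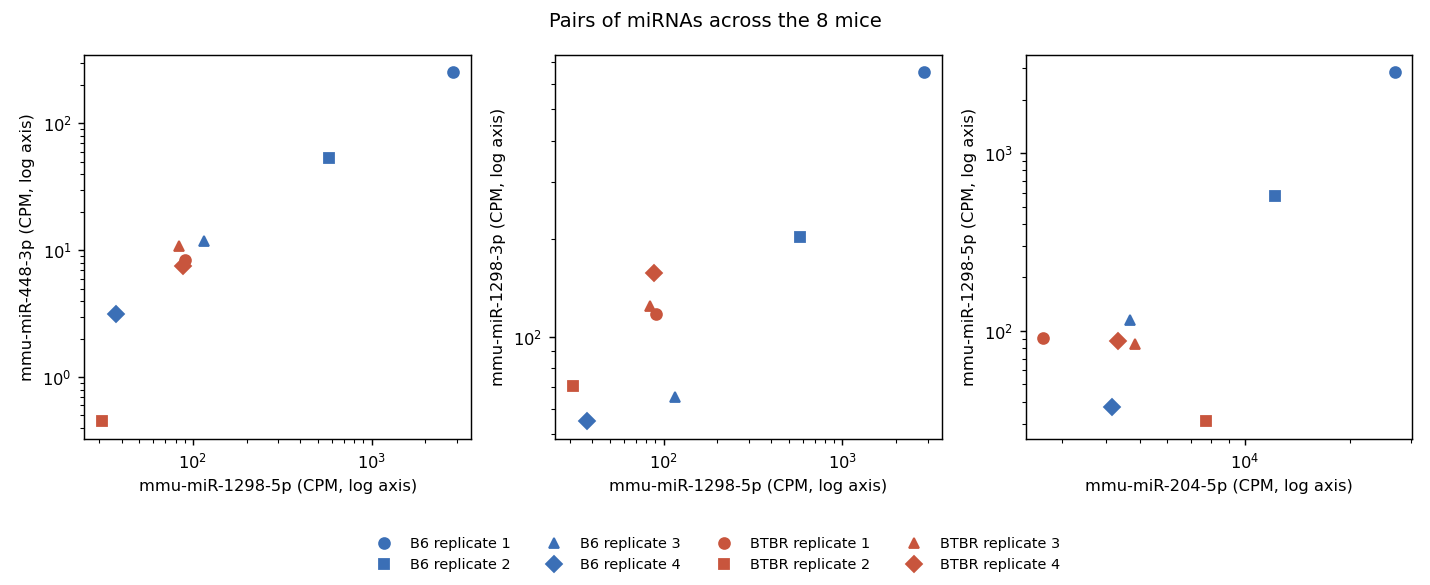
Levels of 3 pairs of miRNAs in CPM (both axes log) in the 8 mice; each symbol is 1 mouse. miR-448-3p lies on a straight course with miR-1298-5p in 7 mice, with BTBR replicate 2 (1 read, 0.449 CPM) below it, while miR-1298-3p and miR-1298-5p, and miR-1298-5p and miR-204-5p, part from each other among the 6 lower mice.

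The use of the hairpin arms was read from the log2 ratio of 5p to 3p counts, which needs no scaling between libraries. It was fitted with limma over all 99 hairpins for which both arms are in the table. None passed the adjusted threshold (0.00%), at an unadjusted p under 0.05 there were 5 (5.05%), among them 2 of the 3 hairpins described here, and in 2.02% of hairpins the strains did not overlap, none of these 3 among them. miR-1298 had the smallest p of the 99. It gave 4.39, 2.85, 1.78 and 0.680 5p reads per 3p read in B6 replicates 1 to 4, and 0.771, 0.439, 0.676 and 0.559 in BTBR replicates 1 to 4. The 5p arm was the more abundant in 3 B6 mice, and the 3p arm in B6 replicate 4 and in all BTBR mice. The log2 ratio was 0.98 ± 1.15 (SD, n = 4) in B6 and −0.74 ± 0.35 in BTBR, a difference of −1.72, SE 0.45 (adjusted p = 0.183, limma with Benjamini-Hochberg adjustment; exact permutation test, p = 0.0571). It passed without B6 replicate 4 (−2.23, adjusted p = 0.0023, limma) or BTBR replicate 1 (−1.84, adjusted p = 0.0997), while without B6 replicate 1 the difference was −1.33 (adjusted p = 0.939). Over all 8 mice, the adjusted p was 0.747 (limma) when the fit let no variance trend with level enter. The 3 mice with the most miR-1298-5p were also, in the same order, the 3 with the highest arm ratio, and BTBR replicate 2 was lowest in both. miR-1298-5p is the numerator of this ratio, so the match is partly built in. By the level of miR-1298-3p, B6 replicates 1 and 2 also came first. B6 replicate 3, however, was 7th by that level and 3rd by ratio, and BTBR replicate 4 was 3rd by that level and 7th by ratio.

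For miR-448 the 3p arm gave more reads in every mouse but BTBR replicate 2, and the 5p arm was rare, with between 2 and 53 reads per library. miR-448-5p had 10.2, 6.02, 1.21 and 0.449 CPM in B6 replicates 1 to 4, and 4.52, 8.08, 1.002 and 4.81 CPM in BTBR replicates 1 to 4. The B6 mice gave 24.9, 8.92, 9.83 and 7 3p reads per 5p read, and BTBR replicates 1 to 4 gave 1.86, 0.0556, 10.8 and 1.58. BTBR replicate 3 thus had a ratio like that of B6 mice, while the other BTBR mice lay below every B6 mouse. At 14 reads against 2, the 95% interval from counting in B6 replicate 4 ran from 1.61 to 63.5, and at 1 read against 18 in BTBR replicate 2 from 0.0013 to 0.352. The log2 ratio of 5p to 3p was −3.37 ± 0.89 (SD, n = 4) in B6 and −0.30 ± 2.87 in BTBR, a difference of 3.08, SE 1.13 (adjusted p = 0.545, limma; exact permutation test, p = 0.114). The difference was 1.77 without BTBR replicate 2, with its 1 read of miR-448-3p, and between 1.77 and 4.07 over all mice left out in turn. Over all 8 mice the log2 ratio ranged over 8.25, the widest of the 99 hairpins, whose median range was 1.87. This width rested on BTBR replicate 2 at 3.62, since the other 7 mice lay between −4.63 and −0.65.

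The miR-204 hairpin kept its 5p arm far above its 3p arm in every mouse. There were 163, 177, 128 and 153 5p reads per 3p read in B6 replicates 1 to 4 and 150, 345, 155 and 286 in BTBR replicates 1 to 4. BTBR replicates 2 and 4 lay above all B6 mice, and the other BTBR mice within their range. The log2 ratio was 7.27 ± 0.20 (SD, n = 4) in B6 and 7.77 ± 0.61 in BTBR, a difference of 0.50, SE 0.34 (adjusted p = 0.900, limma; exact permutation test, p = 0.257). It was 0.28 without BTBR replicate 2, and between 0.28 and 0.68 over all mice left out in turn.

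**Figure D4:**
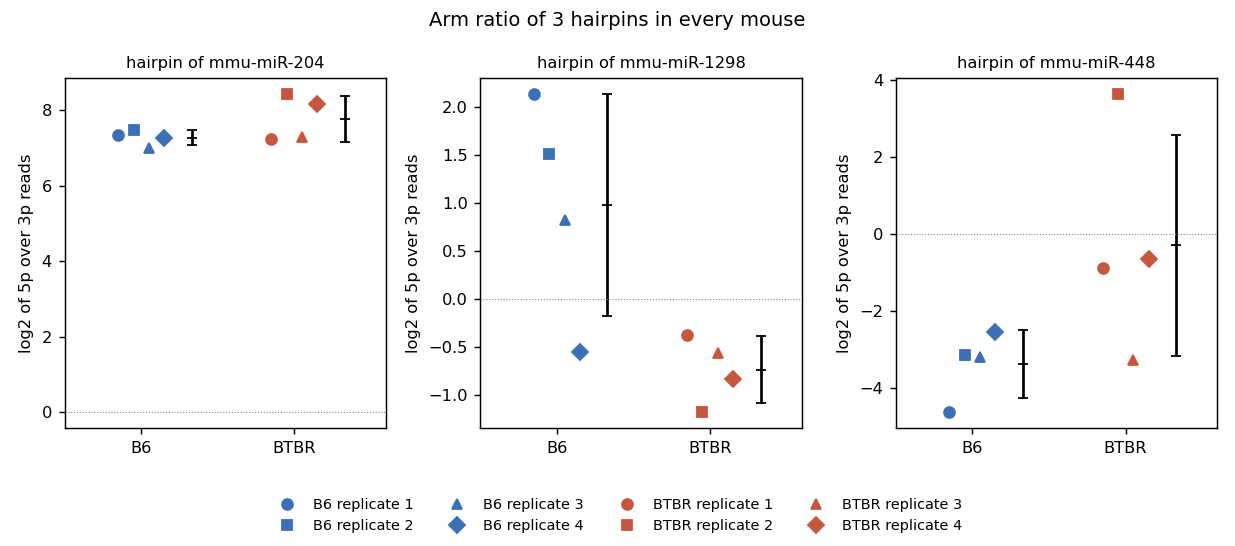
Log2 ratio of 5p to 3p reads for the hairpins of miR-204, miR-1298 and miR-448 in every mouse; each symbol is 1 mouse, and the black bars give the mean and SD of 4 mice. The dotted line marks equal reads from both arms, and for miR-1298 the BTBR mice and B6 replicate 4 lie below it.

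The members varied far more among B6 mice than most miRNAs did. The SD of log2(CPM + 0.5) among the 4 B6 mice had a median of 0.33 over the 422 miRNAs, and of 1.46 over the 6 members. miR-1298-5p (2.73) and miR-448-3p (2.65) had the widest SD of all 422, miR-1298-3p (1.65) came 5th, miR-204-5p (1.27) 15th, miR-204-3p (1.14) 17th and miR-211-5p (0.995) 29th. Read against miRNAs of like level (within 1 on the log2 scale of the mean), the number that varied more in B6 was 0 of 20 for miR-204-5p, 0 of 61 for miR-1298-5p, 0 of 99 for miR-448-3p, 1 of 62 for miR-1298-3p, 3 of 92 for miR-204-3p and 14 of 101 for miR-211-5p. Wide spread in B6 was not particular to the members: miR-34c-3p came 4th of the 422, miR-34b-5p 7th, miR-449b 8th, miR-34b-3p 9th and miR-34c-5p 10th, all ahead of miR-204-5p. These are 5 of the 6 measured miRNAs of the list of multiciliated cells, and the other, miR-449a-5p, came 99th (0.55). Among BTBR mice the median SD was 0.48 over all miRNAs and 0.69 over the members. There miR-448-3p (1.66, with 1 read in BTBR replicate 2) came 4th, miR-211-5p (0.95) 57th, miR-1298-5p (0.74) 91st, miR-204-5p (0.63) 133rd, miR-1298-3p (0.49) 210th and miR-204-3p (0.45) 234th. At like level, the number that varied more in BTBR was 0 of 20 for miR-204-5p, 0 of 99 for miR-448-3p, 1 of 61 for miR-1298-5p, 21 of 62 for miR-1298-3p, 29 of 101 for miR-211-5p and 51 of 92 for miR-204-3p. For miR-1298-5p and miR-448-3p the spread in BTBR rested on BTBR replicate 2, the shallowest library. Without it their SDs were 0.055 and 0.25, and 60 of 61 and 84 of 99 miRNAs of like level varied more, whereas for miR-204-5p it was 0 of 20 still (SD 0.47). The SD of miR-1298-3p was 0.22 without this library, and 33 of 62 varied more. In B6 the SDs without B6 replicate 1 were 1.98 for miR-1298-5p, 1.95 for miR-448-3p and 0.85 for miR-204-5p, which then came 2nd, 3rd and 42nd of the 422. Those of miR-1298-3p and miR-204-3p were 1.02 (26th) and 0.68 (73rd), and 3 of 62 and 16 of 92 miRNAs of like level then varied more, while that of miR-211-5p was 1.21 (16th). The difference in spread between the strains was not tested.

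**Figure D5:**
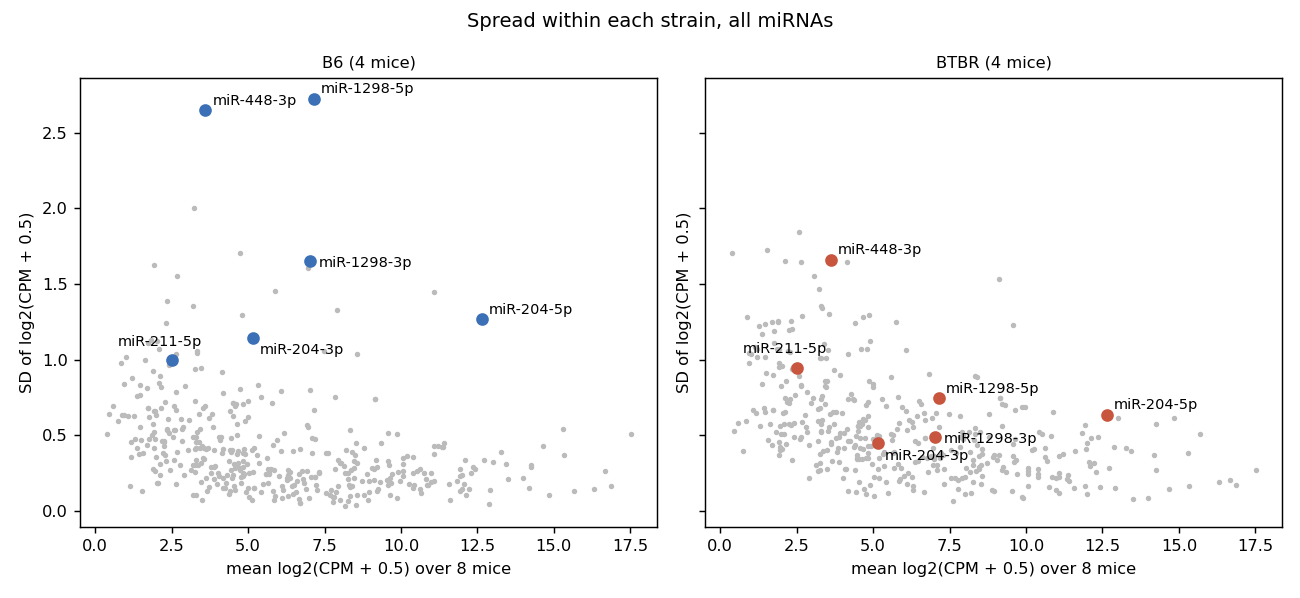
SD of log2(CPM + 0.5) among 4 mice against the mean of log2(CPM + 0.5) over 8 mice, for 422 miRNAs (grey) and the 6 members (coloured), in B6 and BTBR. In B6, miR-1298-5p (2.73) and miR-448-3p (2.65) lie above all other miRNAs, and in BTBR miR-204-5p, miR-1298-5p and miR-448-3p lie at or next to the top for their level, the last 2 through BTBR replicate 2 alone, while the other 3 lie among the rest.

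The order of the members by level also differed between the strains. In B6 the medians were 8474 CPM for miR-204-5p, 346 for miR-1298-5p, 134 for miR-1298-3p, 52.9 for miR-204-3p, 32.8 for miR-448-3p and 2.66 for miR-211-5p. In BTBR they were 4601 CPM for miR-204-5p, 121 for miR-1298-3p, 86.1 for miR-1298-5p, 20.1 for miR-204-3p, 8.20 for miR-211-5p and 8.004 for miR-448-3p. miR-204-5p was above every other member in each mouse. Below it, neighbours in the order overlapped in range in B6. In BTBR they overlapped as well, except that all values of miR-204-3p lay above those of miR-211-5p. Counts of different miRNAs also depend on how well each sequence is ligated, so an order by level is approximate.

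miRNAs of multiciliated cells, which line the ventricles as ependyma, were counted beside the members. Of 7 listed (miR-34b and miR-34c, both arms, miR-449a-5p, miR-449b and miR-449c-5p), 6 were in the table. None passed the adjusted threshold, none had an unadjusted p under 0.05, and all 6 fitted log2 fold changes were below 0, with a median of −0.85, where 207 of all 422 miRNAs were below 0. Their summed level was between 1006 and 9865 CPM in B6 and between 1837 and 2568 CPM in BTBR mice, and miR-34c-5p made up most of it. miR-34c-5p had 9028, 3168, 1440 and 920.1 CPM in B6 replicates 1 to 4 and between 1586 and 2338 CPM in BTBR mice, so B6 replicates 1 and 2 were highest here, as they were for both arms of miR-34b and for miR-34c-3p. miR-449b had 39.3 CPM in B6 replicate 1, while B6 replicate 2, at 7.19 CPM, lay below BTBR replicate 1, at 7.40 CPM. miR-449a-5p had 26.3 CPM in B6 replicate 1, while B6 replicate 2, at 10.2 CPM, was the lowest of the 8 mice except BTBR replicate 2, at 8.08 CPM. With B6 replicate 1 left out, the list had a median log2 fold change of −0.11 and 4 of the 6 were below 0, with miR-34b-5p at 0.05 and miR-34b-3p at 0.38. The red blood cell list (miR-451a and both arms of miR-144) summed to between 44.2 and 74.4 CPM in B6 and between 120 and 159 CPM in BTBR, and the epithelial list (4 of 5 miR-200 family members measured) to between 19.4 and 44.1 CPM in B6 and between 117 and 192 CPM in BTBR, with no overlap between the strains in either. In the red blood cell list 1 miRNA passed and in the epithelial list 2, all higher in BTBR, against 1.66% of all miRNAs. The oligodendrocyte (3 of 3 measured), leukocyte (2 of 3), endothelial (2 of 2) and mural cell (2 of 2) lists overlapped between the strains and none of their miRNAs passed. The part of the cells behind these lists in the members' levels was not tested.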

How the data were processed

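Small RNA libraries (Illumina TruSeq) were made from the hippocampus of single mice. Per the study's methods, the authors trimmed adapters, checked quality with FastQC 0.11.2 and mapped reads to GRCm38 with sRNAbench, which runs Bowtie. The deposited counts are whole numbers of reads lying inside miRBase annotations, not normalized, for 422 miRNAs, with at least 1 read in every library. No molecular identifiers were used, so intervals cover counting error only.

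Columns were matched to mice by library name. Counts were scaled by TMM and compared with edgeR 4.0.16 (glmQLFit and glmQLFTest, R 4.3.3, no covariates, common dispersion 0.137), adjusted by Benjamini-Hochberg over 422 miRNAs at 0.1, the study's cutoff. Arm ratios, with 0.5 reads added to each arm, were fitted with limma 3.58.1 and a variance trend in the lower arm's level. DESeq2 1.42.0 served as an alternative, beside limma-voom, edgeR's exact test, other scalings, a low-count filter, robust dispersions, a replicate block and each mouse left out in turn. The quasi-likelihood test, edgeR's exact test, limma-voom, the DESeq2 Wald test and the main arm-ratio fit were run on simulated data. The other alternatives were not. No library matched another of its strain within sampling noise (chi-square over miRNAs), so none was treated as a duplicate. Sequences came from RefSeq and introns from GENCODE M21, and plots from matplotlib 3.10.9 in Python 3.11.15.

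The members, lists and tests were chosen with earlier results of these data known. The medians, locus spreads and SDs without B6 replicate 1 or BTBR replicate 2 were added after seeing the data. The cutoff of 3 reads of miR-448-3p was not planned in advance. Named are the members, miR-448-5p, the ciliated-cell list, the cell type lists and the 5 miRNAs most like miR-204-5p and miR-1298-5p. Of the ciliated-cell list, levels were given for miR-34c-5p, miR-449b and miR-449a-5p, and fold changes without B6 replicate 1 for miR-34b-5p and miR-34b-3p. miR-153-3p was named for its sequence.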

Additional observations from a re-analysis of the deposited data

Results flagged for a closer look

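With 24 groups of 4 mice examined (members, miR-448-5p, arm ratios and locus sums in each strain), 2 held a mouse set apart from the other 3 by a gap, relative to the group's range, above Dixon's 95% critical value for 4 samples. About 1 in 20 groups is expected to do so by chance. miR-211-5p had 10.7 CPM in B6 replicate 2, against 2.02 to 3.07 CPM in the other B6 mice (gap ratio 0.879). miR-1298-5p had 31.0 CPM in BTBR replicate 2, against 84.2 to 90.9 CPM in the other BTBR mice (gap ratio 0.888), and the same mouse had the single read of miR-448-3p and the fewest counts in all.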

How the results depend on the processing

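Over 17 alternatives, the 6 members kept the direction of their log2 fold change in 101 of 102 fits. The exception was miR-1298-3p without B6 replicate 1, at 0.087. The number of miRNAs past the threshold, 7, became 4 with library size only, 3 with a replicate block, 16 with edgeR's exact test and 21 with the DESeq2 Wald test, and lay between 3 and 13 with a mouse left out. The number of members past it, 0, became 3 with edgeR's exact test and 2 with the DESeq2 Wald test, and lay between 0 and 3 with a mouse left out. The members that then passed had log2 fold changes of −1.79 (exact test) and −1.78 (DESeq2) for miR-204-3p, −3.61 and −3.60 for miR-1298-5p, and −3.55 (exact test) for miR-448-3p. With a mouse left out these ranged from −2.08 to −1.10, from −4.00 to −1.75 and from −3.90 to −1.74, that of miR-1298-3p from −1.38 to 0.087, miR-204-5p from −1.61 to −0.59 and miR-211-5p from 0.51 to 1.84. The number of hairpins past the threshold for the arm ratio, 0, lay between 0 and 2, and the difference for miR-1298 between −2.23 and −1.33. The cause was not tested. Library size only moved the median of all miRNAs by 0.13 on the log2 scale. Same-numbered mice of both strains were not treated as pairs in the main fit, and the labels name no pairing. Their deviations correlated between −0.15 and 0.05, and 1 of 8 libraries was most like its own number. These values cannot show whether the mice were handled in pairs. With the replicate block, miR-1298-5p was at −2.15, miR-448-3p at −2.26, miR-204-3p at −1.45 and miR-1298-3p at −0.37, and no member passed. Counts under 20 reads, as in miR-211-5p and miR-448-5p, limit every ratio built on them.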
